A study of Sus scrofa with 54 samples.

Results

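Interleukins, tumour necrosis factors and their receptors were followed in the ileum, the last section of the small intestine, of piglets raised in 3 environments. The set held every gene on the array whose annotated symbol begins with IL and a digit or with TNFSF or TNFRSF, together with TNF, LTA, LTB and IFNG, and without TNFRSF17. The lymphotoxin beta receptor LTBR, which the same rule names, was not analysed here. In all, 42 genes met the rule with 50 of the 24033 probesets tested, and a gene with several probesets was represented by the one with the highest mean over all 54 arrays. IL1A, IL1B, IL1R1, IL4R, IL17B, TNFRSF12A and TNFSF13 had more than 1 probeset. Values are log2 signals as the authors normalised them, so a difference of 1 is a doubling, and levels were compared between groups of piglets within a gene and never between genes.

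Each array held RNA from 1 piglet of a Large White × Landrace sow, with 6 piglets in each of 9 groups formed by 3 rearing environments and 3 ages. OUT piglets were reared by outdoor sows and IN piglets by indoor sows. IR piglets were born to the same indoor sows, were moved after their first day into individual isolators, drank milk replacer and received the antibiotics Baytril and Amoxinsol every day. Tissue was taken on day 5, on day 28, when all piglets were weaned, and on day 56, after a period on the same creep feed. IR therefore differed from IN in housing, milk, contact with the sow and antibiotics together, and these cannot be told apart. The labels tie no piglet to a litter, and the p-values measure the spread between piglets.

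Interleukins and TNF superfamily ligands are signals that immune, epithelial and stromal cells pass to one another by binding receptors on the cell surface. Most interleukin receptors act through JAK kinases and STAT transcription factors, whereas the IL-1 and TNF receptors act largely through NF-kB. In the gut, IL-7 and IL-15 maintain lymphocytes, IL-18 is made by the epithelium, lymphotoxins shape lymphoid follicles, and IL-1, IL-6, IL-17 and TNF are classic signals of acute inflammation.

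Many of the genes gave low signals. Of the 42, 23 reached a log2 value of 4 in at least 6 arrays, 8 did so in 1 to 5 arrays and 11 stayed below it in all 54, against 59% of all probesets that reached it in at least 6. The deposited values carry no detection calls, so a low signal was not read as absence. The tissue label was checked with enterocyte markers: villin (VIL1) lay between 8.51 and 12.70 in every array, while the ileal bile acid binding protein gene FABP6 averaged 2.96 to 3.55 in the day 5 groups and 13.48 to 13.98 in the day 56 groups.

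A few arrays stood apart from their groups. OUT day 5 replicate 3 had a mean correlation of 0.881 with its own group over all probesets, where the next lowest array had 0.935. Over probesets outside the 42 genes, IN day 28 replicate 3 was more like the day 5 arrays (mean correlation 0.966) than the day 28 arrays (0.941). OUT day 28 replicates 1 and 2 were also slightly closer to day 5, with 0.964 against 0.962 and 0.960 against 0.957. Of the other day 28 arrays 10 were most like day 28 and 5 most like day 56, and 1 of 18 day 5 arrays, IR replicate 2, was marginally closer to day 28 (0.963 against 0.962) and was kept. The counts of members called between ages are given below with all 54 arrays and again without these 4, a choice made after the data were seen, and leaving out day 28 arrays that look like day 5 widens age differences by construction.

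OUT day 5 replicate 3 carried the highest IL1B, IL1A, IL17A, IL6, IL10 and TNF signals of the series. The IL-1 ligands IL1B and IL1A read 11.70 and 11.11 in this piglet, against 2.76 to 3.19 and 2.31 to 3.01 in the other 5 OUT piglets of that day. In the other 53 arrays these probesets reached at most 6.19 for IL1B and 3.11 for IL1A. Second probesets for both genes were also highest in this piglet, at 10.24 for IL1B and 10.43 for IL1A, with no other array above 3.59 and 3.08. IL17A, the neutrophil-recruiting product of Th17 and other lymphocytes, read 9.30 here and at most 1.86 in the other 53 arrays. IL6, an inducer of the acute phase response, read 6.87 against at most 2.94 elsewhere.

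The regulatory and TNF genes of the same piglet were high as well. The anti-inflammatory cytokine IL10 read 6.39, where no other array exceeded 4.84, and TNF read 6.04, where no other exceeded 4.29. The TNF receptor TNFRSF1B read 10.08 against 3.41 to 4.09 in the other 5 OUT day 5 piglets and at most 8.14 anywhere else. The TWEAK receptor TNFRSF12A, named after its values were seen, read 11.16 against 5.04 to 7.31 in its group, and its second probeset read 9.44 where the other arrays reached at most 5.21. The receptor subunit IL4R read 10.81, the epithelial cytokine IL18 read 11.84 and its soluble inhibitor IL18BP read 7.61. In all, 14 of the 42 genes (33.3%) lay at least 2 log2 units above the mean of the other 5 piglets, compared with 5.24% of all probesets.

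**Figure D1:**
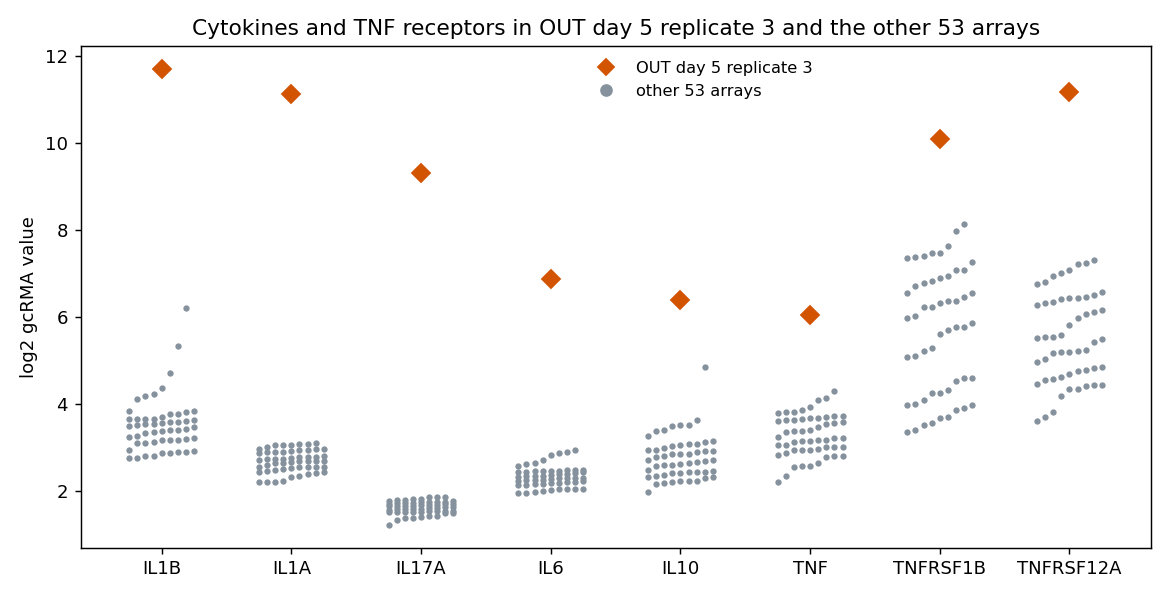
Log2 signal (vertical axis) of IL1B, IL1A, IL17A, IL6, IL10, TNF, TNFRSF1B and TNFRSF12A (horizontal axis), with OUT day 5 replicate 3 set against the other 53 arrays, each point being 1 piglet. For all 8 genes the single array lies above every other array, for example at 9.30 for IL17A where the rest reach at most 1.86.

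Not every member was high in that piglet. TNFSF10, the death ligand TRAIL, read 3.83 against 5.98 to 7.73 in the other 5, and was the 1 gene of the 42 (2.38%) at least 2 units below their mean, compared with 5.12% of all probesets. The lymphocyte growth factors IL15 and IL7 read 3.38 and 2.40, and the IL-10 receptor subunit IL10RB read 7.14. IL5, an eosinophil growth factor, and IL34 read 1.89 and 3.55. TNFSF10, IL15, IL7, IL5 and IL34 were the 5 of the 42 genes at their lowest of all 54 arrays here, beside 10.7% of all probesets. IFNG, at 2.36, and LTA, at 2.85, lay just above the other 5 piglets.

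Other genes moved in the same array, and their part in these values was not tested. Of 6 neutrophil and mast cell markers 4 lay above the other 5 piglets, with S100A9 at 13.79 where the other arrays reached at most 4.0, S100A12 at 5.46 and S100A8 at 4.50. The summed list averaged 6.32 here and at most 3.65 in any other array. Of 11 enterocyte markers 6 lay below the other 5 piglets, with the brush border peptidase ANPEP at 4.44 against 12.48 to 13.19. Another 2 of the 11 lay above, the epithelial keratin KRT18 at 11.41 against 7.88 to 8.43 and, by a small margin, the adhesion gene EPCAM at 12.94 against 12.81 to 12.93. All 6 smooth muscle markers and 7 of 8 endothelial markers lay above. Among cytokine genes with other symbols, 12 of 15 lay above, including CSF3 at 9.73 (at most 3.61 elsewhere) and LIF at 9.10 (at most 4.86).

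The first question was how the genes changed with age. Over all 9 groups, 22 of the 42 genes (52.4%) differed by limma's moderated F test at an adjusted p below 0.05, as did 43.2% of all probesets. From day 5 to day 28 in IR piglets, 11 genes rose and 2 fell, where 6.1% of all probesets rose and 7.95% fell. In IN piglets 6 rose and 2 fell, against 9.97% and 11.1% of all probesets, and in OUT piglets 4 rose and 2 fell, against 7.64% and 9.44%. From day 28 to day 56, 1 gene rose and 1 fell in IR piglets (2.72% and 2.17% of all probesets), 3 rose and 0 fell in IN piglets (2.73% and 2.58%), and 1 rose and 1 fell in OUT piglets (4.33% and 3.34%). In IN piglets over that step, 11 of the 42 genes (26.2%) and 19.5% of all probesets had an unadjusted p below 0.05 in either direction.

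The age counts depended on the arrays that stood apart. Without those 4 arrays, 14 genes changed from day 5 to day 28 in IR piglets, 15 in IN and 15 in OUT piglets. The IR count was 12 up and 2 down, where 8.02% of all probesets rose and 10.5% fell. The IN count was 12 up and 3 down, where 13.9% of all probesets rose and 15.5% fell, and the OUT count was 11 up and 4 down, where 11.9% rose and 13.5% fell. From day 28 to day 56 the counts without the 4 were 4 in IR, 3 in IN and 4 in OUT piglets. Of all probesets 3.78% rose and 3.59% fell in IR, 2.62% and 2.65% in IN, and 5% and 5.41% in OUT piglets. Over the 9 groups the count without the 4 was 25. Leaving out single arrays gave, from day 5 to day 28, 3 genes in IN piglets without IN day 28 replicate 2 and 12 without IN day 28 replicate 3. In OUT piglets the count of 6 became 10 without OUT day 5 replicate 3. No share of all probesets was computed for the count of 25 or for the counts without single arrays.

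**Figure D2:**
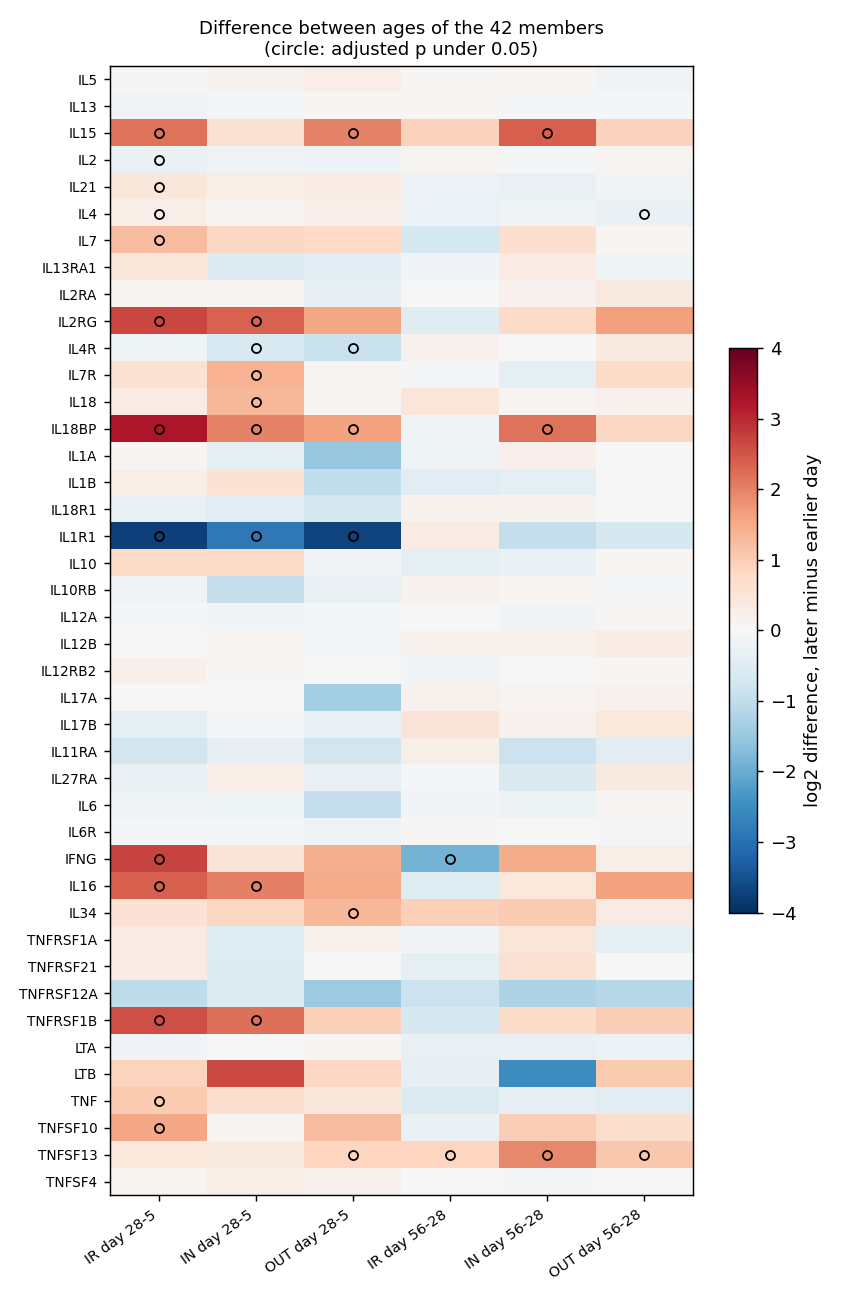
Difference in log2 signal between ages (colour scale, log2 units) for the 42 genes (vertical axis) in 6 age comparisons (horizontal axis), with a circle where limma's adjusted p was below 0.05. IL1R1 and IL18BP carry circles from day 5 to day 28 in all 3 environments, and the IR column for that interval holds 13 circles, the most of the 6 columns.

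Lymphocyte markers rose over the same interval, and their part in the age changes was not tested. Of 10 T and NK cell markers on the array, 2 of them below 4 in every array, 9 rose from day 5 to day 28 in IR, 9 in IN and 8 in OUT piglets, with median differences of 3.79, 2.93 and 2.91. Their averaged level went from 3.12 to 6.05 in IR, from 3.21 to 5.61 in IN and from 3.19 to 5.47 in OUT piglets. IN day 28 replicate 3 had an averaged level of 3.09, within the day 5 range of 2.82 to 3.46. Of 5 macrophage and dendritic cell markers 3 rose in each environment, and of 8 endothelial markers 2, 3 and 5 fell in IR, IN and OUT piglets. In whole tissue, a change in the number of cells of a type and a change in RNA per cell cannot be told apart.

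The 2 genes that changed from day 5 to day 28 in all 3 environments belong to the IL-1 family. IL1R1, the signalling receptor for IL-1, ranged from 7.47 to 9.03 (median 8.09) in IR piglets at day 5 and from 3.81 to 5.28 (median 4.38) at day 28. In OUT piglets it ranged from 8.31 to 10.20 (median 8.96) and then from 3.52 to 8.49 (median 4.40), and in IN piglets from 8.52 to 9.12 (median 8.69) and then from 4.47 to 7.81 (median 5.61). The age groups did not overlap in IR and IN piglets, while in OUT piglets 1 day 28 value, replicate 1 at 8.49, exceeded the lowest day 5 value. IL1R1 fell by 3.74 (SE 0.57, limma adjusted p = 5.76e-06) in IR, by 2.87 (SE 0.57, adjusted p = 0.000252) in IN and by 3.69 (SE 0.57, adjusted p = 7.21e-06) in OUT piglets. A second, dimmer IL1R1 probeset differed less, by -0.31 in IR (adjusted p = 0.0564) and by -0.48 in OUT piglets (adjusted p = 0.00212).

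IL18BP, the soluble inhibitor of IL-18, moved the other way. In IR piglets it ranged from 3.15 to 4.75 (median 3.69) at day 5 and from 6.00 to 8.52 (median 6.95) at day 28, with no overlap. In IN piglets it went from 3.38 to 4.04 (median 3.68) to 3.40 to 7.59 (median 5.90), and the lowest day 28 value again came from replicate 3. The rise was 3.24 (SE 0.58, limma adjusted p = 8.29e-05) in IR, 1.99 (adjusted p = 0.0112) in IN and 1.62 (adjusted p = 0.0474) in OUT piglets. The IN call was lost without IN day 28 replicate 2. The OUT call was lost in 28 of the 54 fits that left out 1 array. It was kept without OUT day 5 replicate 3, which read 7.61, with a rise of 2.25 (limma adjusted p = 0.0023). IN piglets rose again from day 28 to day 56, by 2.16 (adjusted p = 0.0191). That step was not called without IN day 28 replicate 3 alone (1.71, adjusted p = 0.0879), but was without the 4 arrays (1.71, adjusted p = 0.0239). IL18 itself, a cytokine stored in epithelial cells, rose from day 5 to day 28 in IN piglets by 1.33 (SE 0.35, adjusted p = 0.00526), from a median of 8.72 to 9.98.

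Ligands and receptors of the common gamma chain family, which drive growth and survival of lymphocytes, included members called in each environment. IL15 ranged from 3.69 to 5.06 (median 3.91) in IR piglets at day 5, from 5.25 to 7.46 (median 6.31) at day 28 and from 6.47 to 7.71 (median 7.30) at day 56. In OUT piglets it ranged from 3.38 to 4.30 at day 5 and from 5.03 to 7.07 at day 28, and neither environment overlapped between these days. In IN piglets it ranged from 3.77 to 6.28 at day 28 and from 6.92 to 7.69 at day 56. These differences were 2.16 (SE 0.40, limma adjusted p = 0.000111) in IR and 1.98 (adjusted p = 0.000354) in OUT from day 5 to day 28, and 2.39 (adjusted p = 0.000139) in IN from day 28 to day 56.

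IL2RG, the receptor chain that IL-2, IL-4, IL-7, IL-15 and IL-21 share, ranged from 4.20 to 6.64 (median 4.51) in IR piglets at day 5 and from 6.79 to 8.21 (median 7.64) at day 28. It rose by 2.69 (SE 0.75, limma adjusted p = 0.011) in IR and by 2.35 (adjusted p = 0.0204) in IN piglets. The IL2RG call in IN piglets was lost without IN day 28 replicate 2 or replicate 6. In OUT piglets the day 5 values were 3.74 to 8.98, the top one from replicate 3, and IL2RG passed from day 5 to day 28 without that array, by 2.32, but not with it. IL4R, a receptor chain for IL-4 and IL-13, fell by 0.61 in IN (SE 0.20, adjusted p = 0.027) and by 0.88 in OUT piglets (adjusted p = 0.00172), while its second probeset differed by -0.40 and -0.69 without passing. The IN call was lost in 7 of 54 fits that left out 1 array. Named after their values were seen, IL7, a stromal survival factor for lymphocytes, rose by 1.23 in IR piglets (SE 0.38, adjusted p = 0.0212), and its receptor IL7R rose by 1.40 in IN piglets (adjusted p = 0.01). The IL7R call was lost without IN day 28 replicate 2, which left a difference of 0.88. IL7R reached a log2 value of 4 in 3 of the 54 arrays. IL4, IL21 and IL2 passed the same test in IR piglets with differences of 0.28, 0.46 and -0.27, all at the low end of the scale.

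IFNG, the macrophage-activating product of T and NK cells, passed the test in IR piglets, where its day 28 spread was wide. IR values ranged from 2.01 to 2.66 (median 2.14) at day 5, from 3.0 to 8.52 (median 4.35) at day 28 and from 2.26 to 3.51 (median 3.28) at day 56. All 6 day 28 piglets lay above all 6 day 5 piglets, with replicate 3 at 8.52 and replicate 4 at 6.15 far above the lowest. IFNG rose by 2.72 (SE 0.58, limma adjusted p = 0.000868) and then fell by 1.89 (adjusted p = 0.048), and the second call was lost in 32 of 54 fits that left out 1 array. From day 5 to day 28 it differed by 0.52 in IN and 1.46 in OUT piglets, neither passing with all arrays. In OUT piglets it passed without the 4 arrays that stood apart (2.11, limma adjusted p = 0.0164). It also passed there without OUT day 28 replicate 1, OUT day 28 replicate 2 or IR day 28 replicate 3 alone (adjusted p = 0.0358, 0.0492 and 0.0322). The change from day 28 to day 56 differed between IR and IN by -3.37 (SE 0.83), with a limma adjusted p of 0.284.

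**Figure D3:**
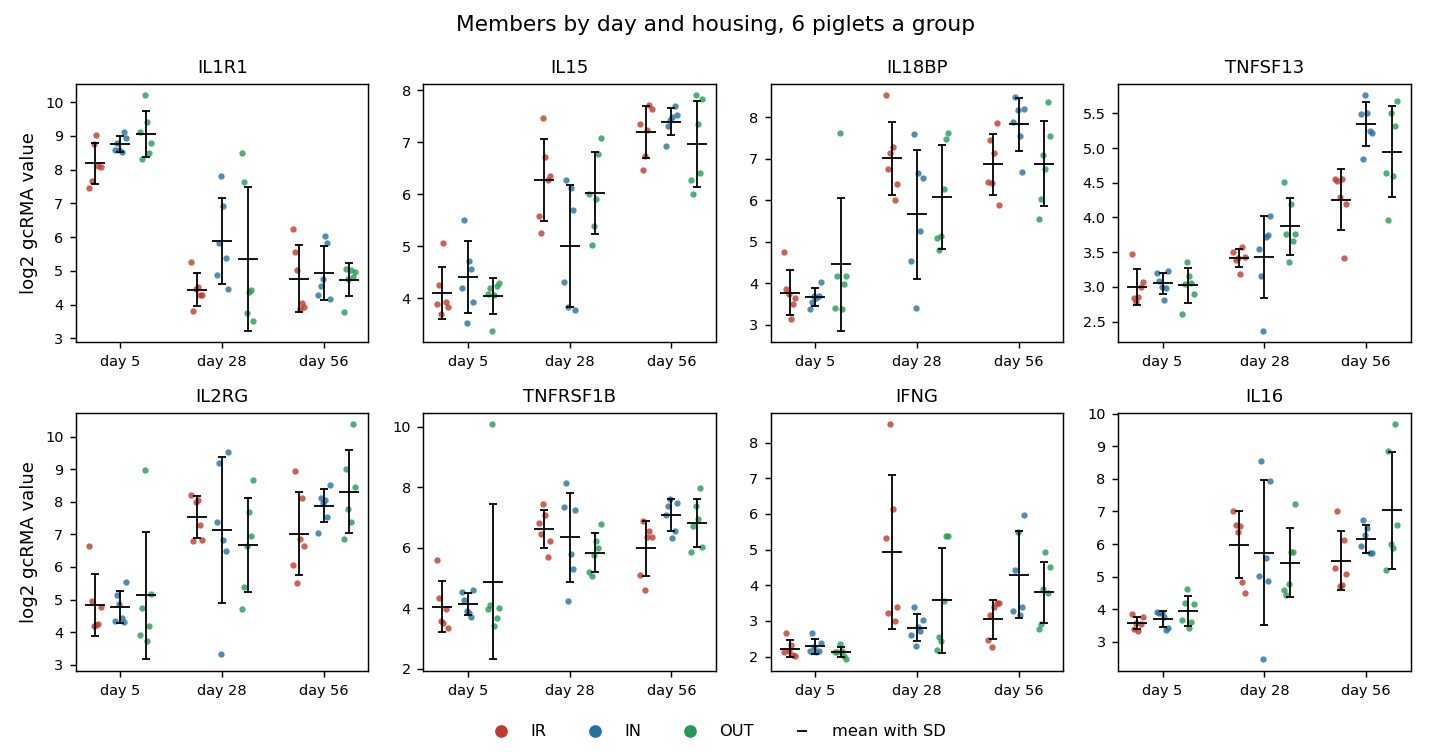
Log2 signal (vertical axis) by age in days (horizontal axis) for IL1R1, IL15, IL18BP, TNFSF13, IL2RG, TNFRSF1B, IFNG and IL16 in the 3 rearing environments, with 1 dot per piglet and the mean ± SD of 6 piglets. IL1R1 drops from medians of 8.09 to 8.96 at day 5 to 4.38 to 5.61 at day 28, while IFNG in IR piglets reaches 8.52 in 1 animal at day 28.

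Among TNF superfamily ligands, TNFSF13, the B-cell and plasma-cell factor APRIL, rose after weaning in all 3 environments. Its values ran from 2.37 to 4.02 in IN piglets at day 28 and from 4.84 to 5.76 at day 56, and in OUT piglets from 3.36 to 4.51 and then from 3.96 to 5.68. The rise was 1.92 in IN (limma adjusted p = 1.69e-07), 1.08 in OUT (adjusted p = 0.00178) and 0.85 in IR piglets (adjusted p = 0.0184). OUT piglets had already risen from day 5 to day 28, by 0.85 (SE 0.23, adjusted p = 0.00619). The second, dimmer TNFSF13 probeset passed in none of these 4 comparisons, with differences from -0.12 to 0.14. From day 5 to day 28 in IR piglets, TNF rose by 1.04 (SE 0.31, adjusted p = 0.0175), its values going from 2.34 to 3.14 to 3.66 to 4.29 without overlap. Without OUT day 5 replicate 3, TNF also passed over that step in IN (0.66, limma adjusted p = 0.00584) and OUT piglets (0.999, adjusted p = 0.000153). The IN difference was also 0.66 with that array, which is not an IN array. TNFSF10 rose by 1.56 (SE 0.54, adjusted p = 0.0436) in IR piglets, a call lost in 8 of 54 fits that left out 1 array.

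The TNF receptors differed in their course. TNFRSF1B, the receptor found mainly on immune and endothelial cells, ranged from 3.35 to 5.59 (median 3.77) in IR piglets at day 5 and from 5.69 to 7.46 (median 6.64) at day 28, and rose by 2.57 (SE 0.65, limma adjusted p = 0.005). In IN piglets it rose by 2.20 (adjusted p = 0.0129), a call lost without IN day 28 replicate 2. In OUT piglets it was called without OUT day 5 replicate 3. TNFRSF1A, the widely expressed TNF receptor with a death domain, had group medians between 8.62 and 9.39, and TNFRSF21, a second death domain receptor, between 9.50 and 10.06. Neither passed in any age comparison with all arrays, though TNFRSF1A differed by -0.63 and -0.65 in IN piglets from day 5 to day 28 without IN day 28 replicate 4 or 5 and then passed (limma adjusted p = 0.038 and 0.0268). The IL-13 receptor subunit IL13RA1 and IL10RB, both with high signals, did not pass in any with all arrays either.

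Of the remaining named ligands, IL16, a chemoattractant for CD4+ cells, rose from day 5 to day 28 by 2.40 in IR (SE 0.64, limma adjusted p = 0.00768) and by 2.03 in IN piglets (adjusted p = 0.0195), the IN call being lost without IN day 28 replicate 2 or replicate 6. IL34, a ligand of the macrophage receptor CSF1R, rose in OUT piglets by 1.33 (SE 0.34, adjusted p = 0.00449), from 3.55 to 4.84 to 5.31 to 6.75 without overlap. IL12B, the shared subunit of IL-12 and IL-23, stayed between 1.85 and 2.83 over all arrays and LTA between 2.03 and 3.31, and neither was called between ages with all arrays. IL6, IL10, IL17A, IL1A and IL1B were called in no age comparison with all arrays. Without OUT day 5 replicate 3, from day 5 to day 28, IL10 rose by 0.75 in IR (limma adjusted p = 0.0229) and by 0.78 in IN piglets (adjusted p = 0.0131), and IL1A fell by 0.38 in IN piglets (adjusted p = 0.0336). Without the 4 arrays IL10 passed in all 3 environments, with 0.75 in IR, 0.98 in IN and 0.70 in OUT piglets. IL6 differed over that step by -1.07 to -1.11 in OUT piglets and passed when OUT day 5 replicate 1, 2 or 6 was left out, with replicate 3 kept. Without replicate 3, where IL6 read 6.87, the difference was -0.19 and did not pass (limma adjusted p = 0.359).

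LTB, the membrane lymphotoxin needed for lymphoid follicles, was high in 6 piglets spread over 4 groups and was called in no comparison with all arrays. It read 11.39 and 10.42 in OUT day 56 replicates 5 and 2, 10.95 and 10.89 in IN day 28 replicates 6 and 2, 8.96 in OUT day 28 replicate 6 and 8.73 in IR day 56 replicate 2. The other 48 arrays reached at most 6.41, so a gap separated the 6 from the rest. In IN piglets the difference from day 5 to day 28 passed without IN day 28 replicate 3 (3.19, limma adjusted p = 0.0347) or without replicate 5 (3.12, adjusted p = 0.0429). It was 2.64 with all arrays and 1.78 without replicate 6, and passed in neither case. The same 6 arrays held the 6 highest averages of the 2 B-cell markers on the array, CD79B and BLNK, and the 6 highest IL16 values. CD79B read 10.59, 9.79, 9.50, 9.79, 8.02 and 6.18 in them in the order given, above every other array. BLNK alone did not set the 6 apart, since its highest value, 11.88, came from the unnumbered IR day 56 array with LTB at 3.65, and BLNK read 10.93 in OUT day 28 replicate 6. The part of these markers in the LTB values was not tested.

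**Figure D4:**
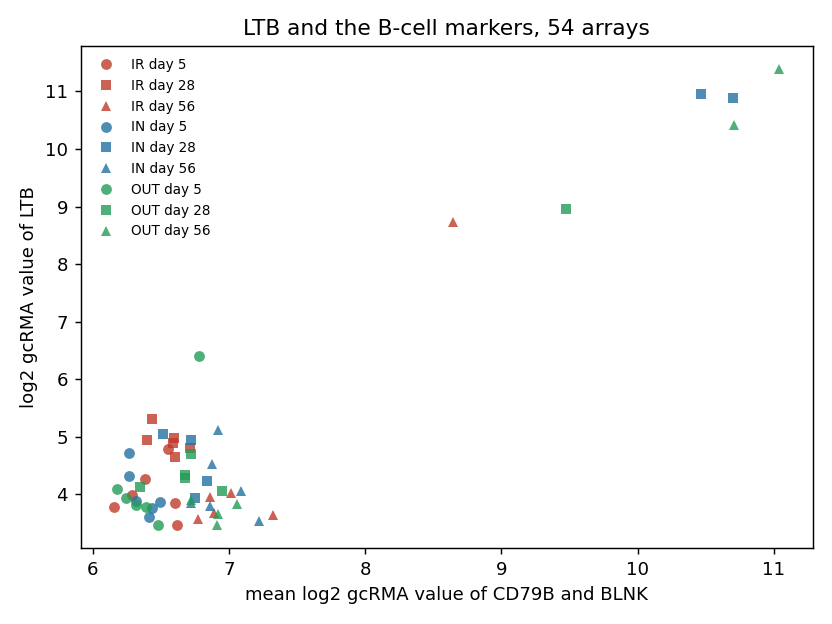
LTB log2 signal (vertical axis) against the mean log2 signal of the B-cell markers CD79B and BLNK (horizontal axis), 1 point per array for 54 arrays. The 6 arrays with LTB from 8.73 to 11.39 also have the 6 highest B-cell marker means, and the other 48 lie at or below 6.41 for LTB.

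Housing within an age was compared next, since rearing environment was the question of the study. A gene was called with limma at an unadjusted p below 0.01 and a difference of at least 2-fold, which in the 3 day 5 comparisons passed 0.337% (IR against OUT), 0.0499% (IN against OUT) and 0.366% (IR against IN) of all probesets. At day 28 the shares were 0.154%, 0.191% and 0.495%, and at day 56 they were 0.283%, 0.275% and 0.287%, in the same order. Of the 42 genes, 1 was called in IN against OUT at day 5, 1 in IR against IN at day 56 and 0 in the other 7 comparisons. Over all 9 comparisons 24 results had an unadjusted p below 0.05, or 2.38% to 14.3% of the 42 genes per comparison, beside 2.59% to 7.83% of all probesets. After adjustment over all probesets none passed, and the lowest adjusted p was 0.411.

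The day 56 call was TNFSF13. IR piglets ranged from 3.42 to 4.56 (median 4.41), IN piglets from 4.84 to 5.76 (median 5.37) and OUT piglets from 3.96 to 5.68 (median 4.98). All 6 IR piglets lay below all 6 IN piglets, a difference of -1.09 (SE 0.27, limma p = 0.000805, adjusted p = 0.411) with p = 0.00216 in a two-sided exact permutation test. That is the smallest p that 6 against 6 piglets allow. The call was lost without IR day 56 replicate 6, the lowest piglet at 3.42, and a second, dimmer TNFSF13 probeset differed by -0.12 and did not pass.

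The day 5 call was IL18. IN piglets ranged from 7.91 to 8.83 (median 8.72) and OUT piglets from 8.68 to 11.84 (median 9.61), with a small overlap. The difference was -1.35 (SE 0.43, limma p = 0.00578, adjusted p = 0.873), and the exact permutation test gave p = 0.00866. Without OUT day 5 replicate 3 it was -0.97 and no longer called, and the call was also lost without IN day 5 replicate 1, IN day 5 replicate 2 or OUT day 5 replicate 6.

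**Figure D5:**
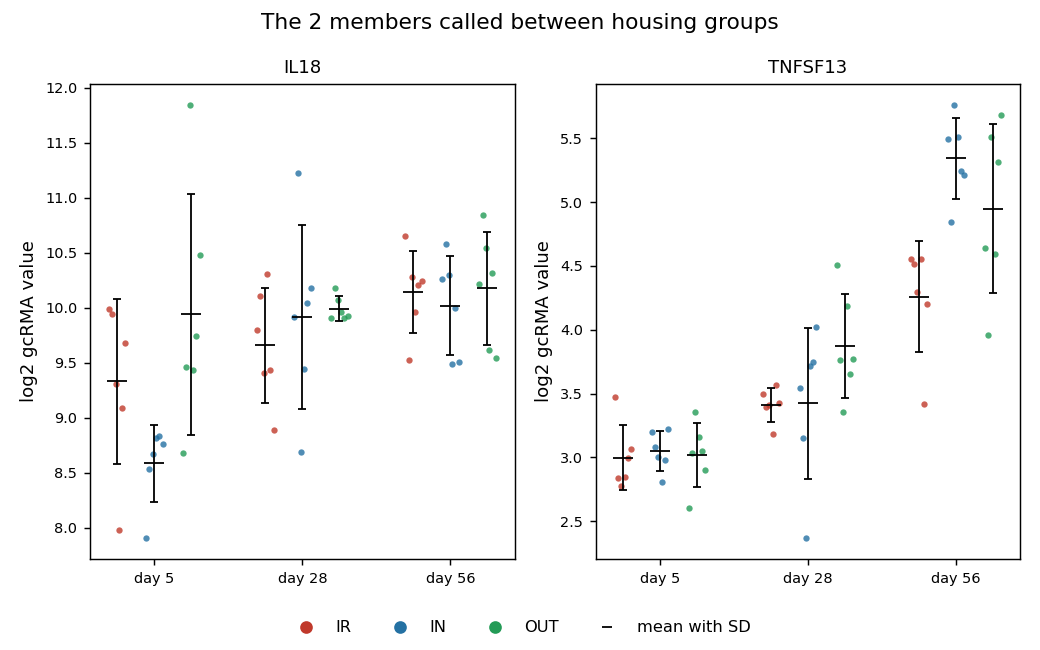
Log2 signal (vertical axis) of IL18 and TNFSF13 by age and rearing environment (horizontal axis), with 1 dot per piglet and the mean ± SD of 6 piglets. At day 56 all IR values of TNFSF13 (3.42 to 4.56) lie below all IN values (4.84 to 5.76), and at day 5 one OUT piglet stands above the rest for IL18 at 11.84.

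Several larger housing differences did not pass. Two-sided exact permutation tests are given for these, each over 6 against 6 piglets and unadjusted. At day 28 IFNG was higher in IR than in IN by 2.13 (exact p = 0.0152) and IL15 by 1.26 (exact p = 0.0606), and both were called when all 9 groups shared 1 fit. At day 56 the sign for IFNG was the opposite, at -1.24 between IR and IN (exact p = 0.0671), beside -1.09 for TNFRSF1B (exact p = 0.026). IL16 differed by -1.54 between IR and OUT at day 56 (exact p = 0.0931). There 1 of 10 T and NK cell markers was called lower in IR, and the median difference of the 10 was -0.99, beside -0.01 for all probesets. IL1R1 differed by -0.87 between IR and OUT at day 5 (exact p = 0.0411), under the 2-fold limit. No difference in age change between environments passed for any member by limma. Of these results 22 had an unadjusted p below 0.05, or 2.38% to 16.7% of the genes per comparison, beside 3.5% to 9.31% of all probesets.

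Genes that carry the signals of these receptors were counted from lists of known pathway members. Of 18 JAK-STAT genes, 8 rose and 0 fell from day 5 to day 28 in IR piglets (median 0.44), 6 rose and 0 fell in IN (median 0.31), and 3 rose and 2 fell in OUT piglets (median 0.30), beside medians of -0.01 for all probesets. JAK3, the kinase that binds the common gamma chain, rose by 2.55 in IR, 1.86 in IN and 1.90 in OUT piglets. Of 16 TNF, IL-1 and NF-kB signalling genes, 5 rose and 1 fell in IR (median 0.45), 5 rose and 1 fell in IN (median 0.42), and 3 rose and 0 fell in OUT piglets (median 0.33). CASP8, the initiator caspase of death receptors, rose by 1.63, 1.97 and 1.45 in IR, IN and OUT piglets. TOLLIP, a brake on IL-1 and Toll-like receptor signalling, fell by 1.13 in IR and by 1.32 in IN piglets.

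From day 28 to day 56, when the share of all probesets called was also lower than before, 1 JAK-STAT gene rose and 1 fell in IR, 0 rose and 1 fell in IN, and 1 rose and 0 fell in OUT piglets. Of the NF-kB list 2, 1 and 3 genes fell and 0 rose. FADD, the adaptor between death receptors and CASP8, fell in all 3 environments, by 1.65 in IR (limma adjusted p = 3.55e-06), by 1.10 in IN (adjusted p = 0.00188) and by 1.47 in OUT piglets (adjusted p = 3.1e-05). Among 15 cytokine and receptor genes with other symbols, 2 rose and 1 fell from day 5 to day 28 in IR, 0 rose and 1 fell in IN, and 2 rose and 1 fell in OUT piglets. The 1 that fell each time was TGFB2, a suppressive cytokine, by 0.58, 0.70 and 0.86. Neither of 2 cytokine-processing genes was called at any age step. No gene of these pathway lists was called between environments.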

How the data were processed

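Ileal RNA from 54 piglets was hybridised by the authors to the Affymetrix GeneChip Porcine Genome Array, 1 array per piglet, and scanned with GCOS 1.2. For the deposited table the authors ran gcRMA, which gives log2 signals (GeneChip Robust Multiarray Averaging, which corrects background by probe base content and equalises array distributions), so a true overall shift between arrays would be removed and low signals are compressed. The table holds 24123 probesets with values from -0.26 to 14.72 and array medians from 3.99 to 4.22. The 90 control probesets were left out. Arrays carry no read depth, and the number of piglets limits the precision.

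Gene symbols came from the platform annotation, in which 10099 probesets have 1 symbol. All 42 symbols were found in the RefSeq gene table. The members and the gene lists were chosen with earlier results of these data known.

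All tests used limma 3.58.1 in R 4.3.3 on all probesets. Housing was tested per day over 3 groups (18 arrays) and called at an unadjusted p below 0.01 and at least 2-fold, the criterion of the study's methods. The methods also used experimental run as a block, which the labels do not give, so no block was fitted. Age and the 9-group F test used 1 fit of all arrays and Benjamini-Hochberg adjusted p below 0.05. Differences of single genes also got two-sided exact permutation tests. The fits were tested on simulated data. Alternatives were replicate blocks, a filter on dim probesets, quantile normalisation, median centring, array weights, a trended robust fit, the mean of all probesets, other groupings and leaving out arrays.

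Named genes were those called between environments, up to 5 with the largest change per age comparison, the 8 with the highest mean and a few common cytokines. The rule also names LTBR, the member the study singles out, which was not analysed here. Others are marked as chosen after their values were seen or stand in a count.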

Additional observations from a re-analysis of the deposited data

Results flagged for a closer look

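In each group of 6 piglets the highest and lowest values were compared with their neighbours by Dixon's test, which chance passes in about 1 of 20 groups. For the named genes 31 of 234 gene and group combinations passed (13.2%), and 12 of the 31 came from OUT day 5 replicate 3. There the outlying values were 11.70 for IL1B, 11.11 for IL1A, 9.30 for IL17A, 6.87 for IL6, 6.39 for IL10, 6.04 for TNF, 10.08 for TNFRSF1B, 8.98 for IL2RG, 7.61 for IL18BP, 10.81 for IL4R and 6.41 for LTB, all high, and 3.38 for IL15, which was low.

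Among the other outlying values, high LTB stood out in OUT day 28 replicate 6 (8.96) and IR day 56 replicate 2 (8.73). TNF was high in IR day 28 replicate 3 (4.29) and OUT day 28 replicate 6 (4.08). IL2RG was high in IR day 5 replicate 1 (6.64). TNFSF13 was low in IR day 56 replicate 6 (3.42), the array without which its housing call is lost. IL18 was low in IN day 5 replicate 1 (7.91), and IL1R1 was low in OUT day 56 replicate 1 (3.79).

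IL34 stood out low in IN day 28 replicate 3 (3.60), an array that resembled day 5, and high in OUT day 28 replicate 4 (6.75). IL13RA1 was low in IR day 28 replicate 2 (6.71) and IN day 56 replicate 1 (7.31). IL1B was low in OUT day 28 replicate 1 (2.86). Among genes at the low end of the scale, IL4 stood out in IR day 5 replicate 2 (2.16), IR day 28 replicate 3 (2.46) and OUT day 28 replicate 6 (2.27). IL12B stood out in IR day 28 replicate 4 (1.85), and LTA in IN day 5 replicate 4 (3.14) and the unnumbered IR day 56 array (2.03).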

How the results depend on the processing

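Low signals without detection calls, 6 piglets a group and the lack of a run label limit these results. The counts of members called were recomputed under 13 other settings and with each array left out, and the causes of the changes were not tested unless stated.

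Same-numbered piglets deviated together in 19 of 50 pairs (correlation over 0.1, range -0.482 to 0.68). Differently numbered piglets were not compared, so whether the numbers pair the samples was not tested. With the number as a replicate block, or numbers in blocks of 2, calls from day 28 to 56 in IR went from 2 to 1 and no other count moved by over 1.5 times. These block settings also left out the day 56 arrays without a number. The call lost in IR, IFNG, was lost as well without the unnumbered IR day 56 array alone. Over the 9 groups the replicate block gave 20 calls, and 21 in blocks of 2, where 22 were called without it.

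From day 28 to 56 in IR, the trended robust fit and the p below 0.01 with 2-fold rule also left 1 call. From day 28 to 56 in OUT, 1 of 2 calls remained in number without dim probesets and under the p and fold rule, and 0 when the fit held just the 2 groups of the comparison. With 1 fit for all 9 groups, IR against IN at day 28 had 2 calls, IFNG and IL15. TNFSF13 at day 56 left 0 calls when all probesets of a gene were averaged, and an adjusted p left 0 calls in every housing comparison.

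Array weights gave 0 calls in IN against OUT at day 5, 1 in IR against OUT at day 28 and 2 in IR against IN at day 56, and between ages 6 from day 28 to 56 in IR, 15 from day 5 to 28 in OUT and 4 from day 28 to 56 in OUT. They turned the sign of IR minus OUT at day 5 for IL1B (0.17) and IL2RG (0.38), of IN minus OUT at day 5 for IL10 (0.027), IL1A (0.14), IL1B (0.37), IL2RG (0.36), TNF (0.16) and TNFRSF1B (0.20), and of day 28 minus day 5 in OUT for IL10 (0.63) and IL1B (0.41).

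Without the 4 arrays that stood apart, a choice made after the data were seen, calls numbered 0 in IN against OUT at day 5, 1 in IN against OUT at day 28 (IL1R1), 4 from day 28 to 56 in IR, 15 from day 5 to 28 in IN, 15 in OUT, and 4 from day 28 to 56 in OUT. Several signs turned, with the values that follow.

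Leaving out 1 array at a time, the calls between environments ranged from 0 to 1 in 5 comparisons (IR against OUT at each age, and IN against OUT at days 5 and 56), stayed at 0 in 2 (IR against IN at day 5 and IN against OUT at day 28), and ranged from 0 to 2 for IR against IN at days 28 and 56. Between ages they ranged from 11 to 14 (IR, day 5 to 28), 0 to 4 (IR, day 28 to 56), 3 to 12 (IN, day 5 to 28), 2 to 5 (IN, day 28 to 56), 5 to 10 (OUT, day 5 to 28) and 1 to 3 (OUT, day 28 to 56), and over the 9 groups from 21 to 24. The upper end of each of the next ranges came without OUT day 5 replicate 3, and for the housing differences it is also the value without the 4 arrays. IR minus OUT at day 5 ranged from -1.37 to 0.42 for IL1B, -0.65 to 0.48 for IL2RG, -0.70 to 0.073 for TNF and -1.13 to 0.22 for TNFRSF1B. IN minus OUT at day 5 ranged from -0.76 to 0.075 for IL10, -1.51 to 0.25 for IL1A, -1.31 to 0.48 for IL1B, -0.63 to 0.42 for IL2RG, -0.83 to 0.094 for IL6, -0.53 to 0.24 for TNF and -1.02 to 0.31 for TNFRSF1B. Day 28 minus day 5 in OUT ranged from -0.27 to 0.56 for IL10, -1.33 to 0.46 for IL1B and -0.20 to 0.43 for IL18. Without the 4 arrays this difference was 0.70 for IL10 and 0.59 for IL1B. None of the differences whose sign turned was called with all arrays.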
